A study of Homo sapiens with 76 samples.

Results

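The cytosolic and mitochondrial heat shock chaperones are a group of 10 genes, taken by name from the table of molecule counts. All 10 had a row among its 17513 gene rows. The 3 mitochondrial members are HSPD1, HSPE1 and HSPA9, and the 7 cytosolic members are HSP90AA1, HSP90AB1, HSPA8, HSPA1A, HSPA1B, DNAJB1 and HSPH1. With a mean of at least 1 unique molecular identifier (UMI, a random tag that marks 1 cDNA molecule) per cell, 9 of them entered the comparisons across genes, as did 2810 genes in all. HSPA1A fell below that mean and is described by its counts alone.

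The study profiled 76 individual HEK293 cells (a long-established line from human embryonic kidney) in 1 sequencing run, by a method that captures the 5' ends of polyadenylated RNA. The cells form 1 group: no genotype, treatment or time was compared, and the culture medium held fetal calf serum. Nothing in the labels says whether the cells came from 1 culture or from several. The cells are therefore units of observation within 1 sample, values after ± are SDs over cells, correlations over cells are descriptions, and no p-value is given.

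Chaperones bind unfolded protein chains and help them reach or regain their fold. In the mitochondrial matrix, Hsp60 (HSPD1) forms a barrel that encloses a chain and Hsp10 (HSPE1) is its lid, while the mitochondrial Hsp70 (HSPA9, mortalin) pulls chains through the inner membrane and folds them. In the cytosol, Hsc70 (HSPA8) is the constitutive Hsp70, HSPA1A and HSPA1B encode the stress-inducible Hsp70, the J-domain protein DNAJB1 delivers clients and stimulates the ATPase, and HSPH1 (Hsp110) exchanges the nucleotide. Hsp90 matures kinases and receptors, with HSP90AA1 as the more inducible and HSP90AB1 as the more constitutive form. Heat shock factor 1 (HSF1) drives many of these genes through heat shock elements, inverted repeats of the letters GAA.

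The element sequences show which of the members carry this motif close to their starts. They come from the RefSeq promoter table on GRCh38.p14, which had 16 windows of 250 bases before a start for the 10 members. The deposited counts were made on another build, so these positions describe the genes and not the reads. The letters GAANNTTC or TTCNNGAA, which are the 2-unit element facing in and facing out, were searched on both strands, as were the 3-unit forms GAANNTTCNNGAA and TTCNNGAANNTTC, which contain the 2-unit forms. A 2-unit form lay in 7 of the 16 windows, each from a different member, against 11.6% of all 35116 windows in the table. A 3-unit form lay in 4 of the 16 windows, each from a different member, against 0.441% of all windows. The stretches below hold 30 bases each around 1 such match, read 5' to 3' on the gene's own strand, with the element letters in capitals.
HSP90AA1, chr14:102087111-102087140, minus strand: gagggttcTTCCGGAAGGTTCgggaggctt
HSP90AB1, chr6:44247770-44247799, plus strand: ggagcaggTTCTGGAAGATTCatgggctcc
HSPA8, chr11:123062345-123062374, minus strand: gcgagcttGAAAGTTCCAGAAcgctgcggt
HSPD1, chr2:197500061-197500090, minus strand: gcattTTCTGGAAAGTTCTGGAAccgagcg
DNAJB1, chr19:14518456-14518485, minus strand: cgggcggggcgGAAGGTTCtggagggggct
HSPA1B, chr6:31827622-31827651, plus strand: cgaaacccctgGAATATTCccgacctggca
HSPA1A, chr6:31815426-31815455, plus strand: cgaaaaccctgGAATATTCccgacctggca

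The first 4 of these stretches hold a 3-unit element, which in HSPD1 is 2 overlapping matches joined in a longer run of capitals, and the other 3 hold a 2-unit element. The first letter of the element lies 88 bases before the start in HSP90AA1, 165 in HSP90AB1, 230 in HSPA8, 77 in DNAJB1, 105 in HSPA1B and 106 in HSPA1A. In HSPD1 it lies 245 bases before the inner of its 2 listed starts. It thus lies after the outer start, in bases annotated as exon of HSPD1 or HSPE1. HSP90AA1, HSP90AB1 and DNAJB1 also have listed starts farther upstream, and the distances given are to the start whose window held the element. Their elements lie after those farther starts, at base 102139749 for HSP90AA1, 44246194 and 44247101 for HSP90AB1 and 14529271 for DNAJB1. None of these letter forms was found in the windows of HSPE1, HSPA9 or HSPH1, which says only that these letters are not in those bases. The HSPE1 window reaches back to base 197500129, so the HSPD1 stretch at 197500061-197500090 lies just outside it. A CCAAT box (CCAAT or ATTGG) lay in a window of 5 members, and in 32.01% of all windows. Some members have several windows, so this count by member cannot be compared with that share by window. A TATA box (TATAAA or TTTATA) lay in 2 of the 16 windows, a share near the 10.7% of all windows. These 2 windows belong to HSPA1A and HSPA1B, which are close copies.

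Position sets a limit on 2 pairs of members. HSPD1 and HSPE1 stand head to head on chromosome 2: the outer HSPD1 start, at base 197500274 on the minus strand, lies 105 bases from the HSPE1 start at base 197500379 on the plus strand. Their annotated exons in GENCODE 29 share 169 bases on opposite strands, and the sources used here do not say whether strand was used in counting, so 5' UMIs in the shared bases could be given to either gene. HSPA1A and HSPA1B are close copies on chromosome 6. Their 250 bases before the start are 93.6% identical, their first 50 transcribed bases 82.4%, and their longest coding transcripts 89.2%. These figures count gaps as differences. In the transcripts 2323 bases were identical, 76 were mismatched and 206 were gaps, so most of the difference there is gaps. How reads that fit both copies were counted is not given, so the split of UMIs between them is uncertain.

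The cells gave 7305 to 43392 endogenous UMIs, with a median of 20966, and 5 cells lay under 10483, the median divided by 2. Among HEK293 markers (7 of 10 listed genes measured), VIM had a UMI in 70 cells, KRT18 in 45, CDH2 in 35, KRT8 in 19 and LHX1 in 6. KRT19 and EPCAM had a UMI in 1 cell each, and CDH1, PAX2 and PAX8 had no row. The markers of other cell types that were measured gave 18 UMIs over all 76 cells for blood (3 of 8 listed genes measured), 18 for fibroblast and muscle (4 of 8), and 1 for liver (2 of 6). Of the neuronal markers (5 of 8 measured), UCHL1 had a UMI in 70 cells, NEFM in 49, NEFL in 26 and INA in 2, while MAP2 had none.

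The 10 chaperone genes together gave 9351 UMIs, or 0.531 ± 0.143% of a cell's endogenous UMIs (n = 76 cells). The lowest cell had 0.213% and the highest 0.877%. The cytosolic members made up 0.311 ± 0.0918% and the mitochondrial members 0.220 ± 0.0661%. For scale, the 8 subunits of CCT, the cytosolic chaperonin, together took 0.330 ± 0.0838%, and the 16 listed chaperones of the endoplasmic reticulum (ER) took 0.208 ± 0.0677%. Rows for processed copies of the members held 61 UMIs, which is 0.652% of the members' own.

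The mitochondrial chaperonin led the group. HSPD1 had 28.2 ± 18.6 UMIs per cell, with 0 in the lowest cell, a median of 25.5 and 88 in the highest, and ranked 131st among all genes by mean. Its lid, HSPE1, had 17.7 ± 10.3 UMIs per cell, from 0 through a median of 16 to 44. Each of the 2 genes was missing from 1 cell and present in the other 75. HSPA9 stood lower, at 5.03 ± 3.66 UMIs per cell (0 to 16, median 4), and was seen in 72 cells.

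Among the cytosolic members, both Hsp90 genes and HSPA8 had UMIs in all 76 cells. HSP90AA1 had 24.8 ± 13.98 UMIs per cell (1 to 60, median 21). HSP90AB1 had 22.4 ± 14.9 (1 to 62, median 21). HSPA8 had 20.4 ± 15.2 (1 to 71, median 18). In order of mean, HSPD1, HSP90AA1, HSP90AB1, HSPA8 and HSPE1 each lay within 1 SD of the next. These SDs include differences in cell total and do not compare genes within a cell, so they cannot settle this order. Within cells, HSPD1 was above HSPE1 in 56 cells and below it in 18. HSP90AA1 was above HSP90AB1 in 40 cells and below it in 32, and above HSPA8 in 44 and below it in 29. The step from HSPE1 to HSPA9 was larger than the SD of either. Each molecule is counted once at its 5' end whatever its length, so these levels can be set side by side between genes, apart from differences in how well each 5' end is captured. The maxima of HSPD1, HSPE1, HSP90AA1 and HSPA8 in UMIs all fell in the cell titled 1, which had 36606 UMIs and also the highest chaperone share.

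The stress-inducible and accessory members were sparse. HSPA1B had 1.87 ± 1.95 UMIs per cell (0 to 10, median 1) and a UMI in 54 cells, or 71.1% (exact Clopper-Pearson 95% interval 59.5 to 80.9%). HSPH1 had 1.5 ± 1.95 (0 to 8) and a UMI in 43 cells, or 56.6% (44.7 to 67.9%). DNAJB1 had 1.08 ± 1.60 (0 to 7) and a UMI in 39 cells, or 51.3% (39.6 to 62.96%). These 3 genes lay within 1 SD of one another. HSPA1A had 2 UMIs, 1 in each of 2 cells (2.63%, 0.320 to 9.19%), against 142 for HSPA1B. These intervals cover counting error only, and a cell without a UMI may still hold the RNA.

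**Figure D1:**
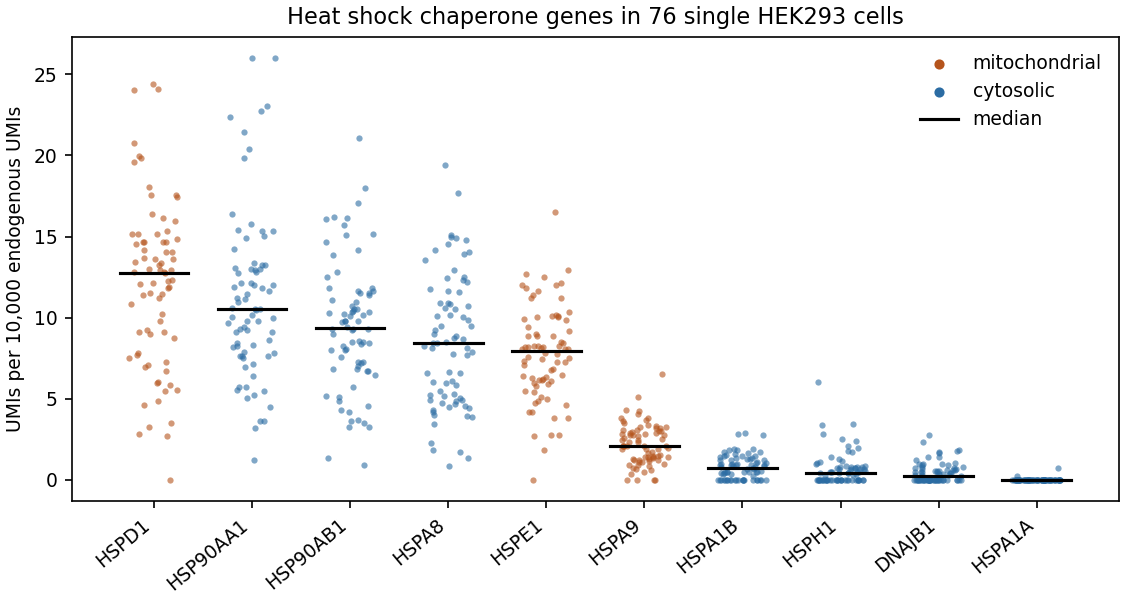
UMIs of each chaperone gene per 10000 endogenous UMIs (vertical axis, linear), 1 point per cell, mitochondrial members in orange and cytosolic members in blue, with the median as a bar. In the plot 5 genes form a high tier with medians between 7.95 (HSPE1) and 12.8 (HSPD1), HSPA9 stands at 2.06, and the other 4 lie below 1.

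In the plot of levels by gene, which corrects for depth, the range within each high-tier gene was wide. HSPD1 ran to 24.4 UMIs per 10000 and HSPE1 to 16.5. HSP90AA1 ran from 1.21 to 26.02, HSP90AB1 from 0.889 to 21.1, and HSPA8 from 0.852 to 19.4. The lowest and the highest cells of each of these 5 genes thus stood far apart, although few UMIs lie behind the lowest values.

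How much of this spread exceeds counting noise was measured by the Pearson dispersion. It is the squared deviation from the count that a cell's total predicts, divided by that prediction, averaged over cells, and counting noise alone gives 1. For a gene this total is the cell's endogenous UMIs, and for a spike-in it is the cell's spike-in UMIs. Spike-in RNAs, added in equal amount to each cell, show what the method adds: the median of 36 spike-ins was 1.53 and the highest 2.20. Of the 9 members, 6 lay above the highest spike-in, against 21.6% of the 2810 genes. More abundant genes exceeded it more often: 45.8% of the 565 genes with a mean of 5 to 50 UMIs lay above it.

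HSPD1 had the highest dispersion of the members, 4.29, followed by HSP90AA1 with 4.14, HSPA8 with 4.10 and HSP90AB1 with 3.34. In these 4 genes between 70.0% (HSP90AB1) and 76.7% (HSPD1) of the spread was beyond counting noise. HSPH1 had 2.61, and HSPE1 had 2.24, just above the highest spike-in. DNAJB1, with 1.73, HSPA9, with 1.46, and HSPA1B, with 1.34, lay within the range of the spike-ins. With counting noise taken off, the remaining coefficient of variation was 39.3% for HSPA8, 33.5% for HSPD1, 31.9% for HSPA9, 31.6% for HSP90AB1, 31.4% for HSP90AA1 and 25.3% for HSPE1. The median of its square was 0.112 over the 9 members, against 0.234 over all genes compared. For the 6 abundant members this square lay between the percentiles 11.5 (HSPE1) and 33.4 (HSPA8) of all genes compared, most of which have few UMIs. Against the 565 genes with a mean of 5 to 50 UMIs, whose median was 0.0992, HSPA8 was higher at 0.155 and HSPD1 at 0.112, HSPA9 (0.101), HSP90AB1 (0.0996) and HSP90AA1 (0.0988) were close to it, and HSPE1 was lower at 0.0642. HSPH1 and DNAJB1, with coefficients of 85.03% and 88.7% at few UMIs, lay at the percentiles 93.5 and 95.3. With cells thinned to 10940 UMIs each (71 cells), 3 of the 6 members still compared exceeded the highest spike-in, against 171 of 1582 genes.

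**Figure D2:**
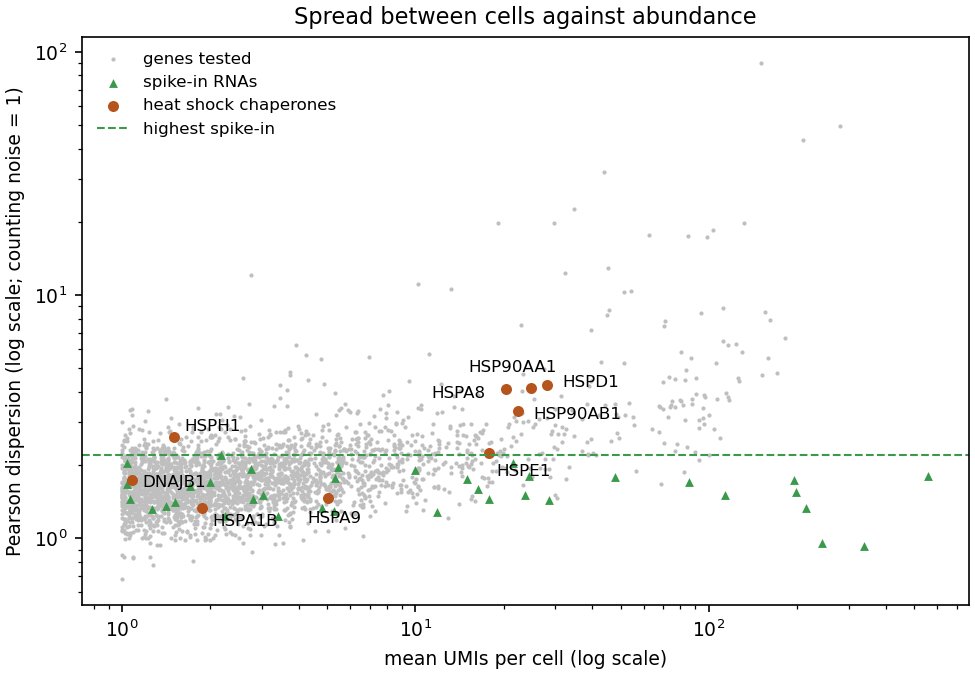
Pearson dispersion (vertical axis, log scale, counting noise equals 1) against mean UMIs per cell (horizontal axis, log scale) for all genes compared (grey), spike-in RNAs (green triangles) and the chaperone genes (orange), with a dashed line at the highest spike-in, 2.20. HSPD1, HSP90AA1, HSPA8 and HSP90AB1 stand above every spike-in, HSPE1 sits at the line, and HSPA9 lies among the spike-ins.

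Co-variation was then described by Spearman's rho between 2 genes' shares over the 76 cells. The points share their library, their cell's total as the divisor and its composition. A rho near 0 has a standard error of about 0.117 at this number of cells, if they were independent. Of the 36 pairs among 9 members, 30 were above 0, the median rho was 0.171, and 5 pairs (13.9%) reached 0.3. Among all pairs of the genes compared, the median was 0.0144 and 1.16% reached 0.3. Counting noise in genes of few UMIs pulls rho toward 0, so the 6 members with a mean of at least 3 UMIs were also set apart. Their 15 pairs had a median of 0.203 with 3 at 0.3 or more, against a median of 0.00799 and 1.75% over all pairs of genes that abundant.

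The 2 highest pairs crossed compartments and both held HSPD1. HSPD1 and HSP90AA1 had a rho of 0.483 (Pearson r of log2 values 0.488), and HSPD1 and HSP90AB1 had a rho of 0.433 (r 0.485). With the 2 cells farthest from the median of HSPD1 left out, they were 0.441 and 0.431. HSPD1 with HSPA9 followed at 0.340. The other pairs at 0.3 or more were HSPA9 with HSPH1 at 0.330 and HSP90AA1 with HSPH1 at 0.314, where HSPH1 has few UMIs. The 18 pairs of a mitochondrial and a cytosolic gene had a median of 0.178, the 15 pairs within the cytosol 0.155, and the 3 pairs within mitochondria 0.203, with values of 0.340, 0.203 and -0.0574. The ranges of the 3 kinds overlapped.

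**Figure D3:**
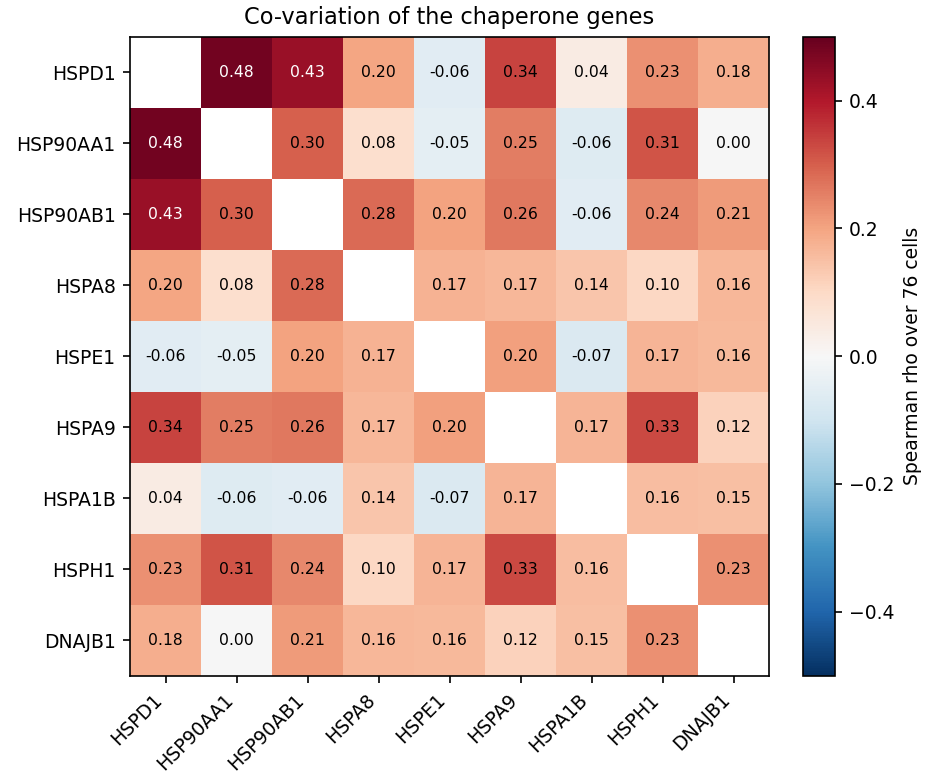
Spearman's rho over 76 cells for each pair of the 9 chaperone genes compared, red above 0 and blue below 0, with the value in each square. HSPD1 with HSP90AA1 (0.483) and with HSP90AB1 (0.433) are the highest, and HSPE1 and HSPA1B hold most of the values below 0.

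The chaperonin barrel and its lid had a rho near 0 on the scale of the cell's total, and the value depended on the scale. HSPD1 and HSPE1 had -0.0574 (r of log2 values -0.0273), and -0.0113 with the 2 extreme cells of HSPD1 left out. HSPE1 also had -0.0475 with HSP90AA1, and its highest value with a member was 0.203, with HSPA9. With the ribosomal protein share held fixed, the rho of HSPD1 and HSPE1 was -0.253, and with abundant genes left out of the total -0.139. Divided by spike-in UMIs in place of the cell's own total, so that RNA content enters every gene, the rho of this pair was 0.493. On that scale the median over all pairs of genes was 0.177 and 18.3% of them reached 0.3, so the pair is above the median there. The bases these 2 genes share on opposite strands could move UMIs from one to the other, and the effect of this on rho was not tested. In 70 head-to-head gene pairs with starts less than 1000 bases apart, this one included, the median rho was 0.0181, the range was -0.380 to 0.270, and 19 pairs lay below HSPD1 and HSPE1. In the 11 of them with both genes at a mean of at least 3 UMIs the median was -0.00175, and 2 lay below.

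**Figure D4:**
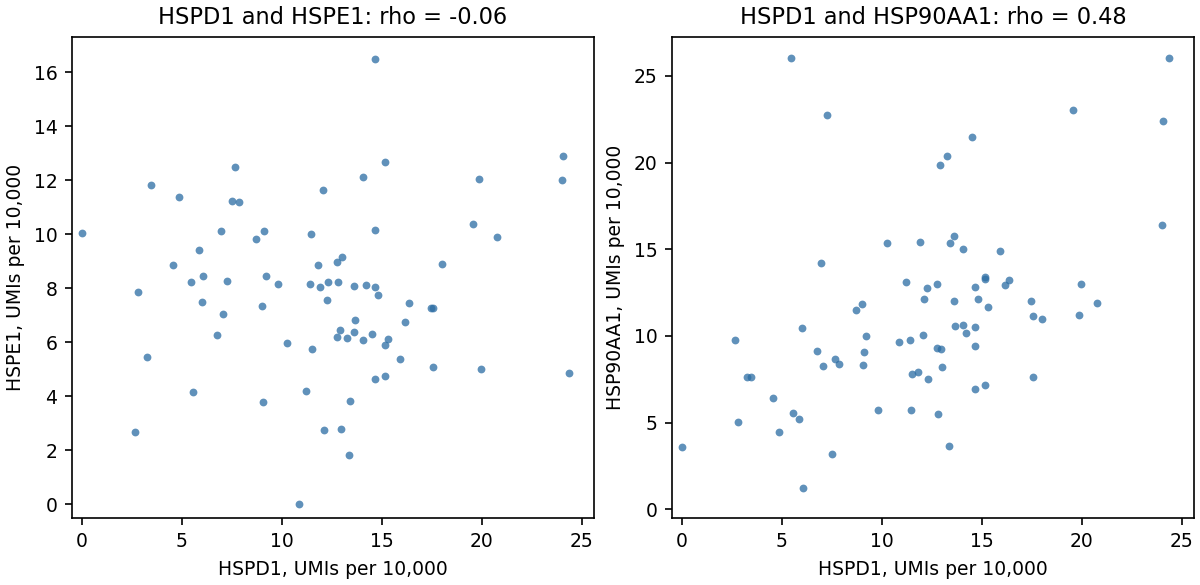
HSPE1 (left panel) and HSP90AA1 (right panel) against HSPD1, each in UMIs per 10000 endogenous UMIs, 1 point per cell. The HSPE1 cloud has no slope (rho -0.0574), while HSP90AA1 is higher in cells with more HSPD1 (rho 0.483), with 2 cells high in HSP90AA1 at low HSPD1.

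The plot of both genes against HSPD1 puts this contrast in single cells. Pooled over cells, HSPE1 gave 38.6% of the UMIs of the pair (exact 95% interval 37.02 to 40.3%), or 0.630 HSPE1 per HSPD1. This interval covers counting error over the pooled UMIs only and is too narrow for the spread between cells. HSPE1 was the higher in 18 cells and HSPD1 in 56. Among 75 cells with at least 10 UMIs of the pair, the HSPE1 part ran from 0% to 100% with a median of 37.7%. The cell titled 35 had 0 UMIs of HSPE1 and 18 of HSPD1, and the cell titled 56 had 14 of HSPE1 and 0 of HSPD1. Neither of these was among the 5 shallow cells. The split varied 3.49 times as much as binomial counting predicts. For 45 pairs of spike-ins this figure was between 1.12 and 2.11, and 85.7% of 6216 pairs of genes with a mean of 15 to 35 UMIs lay lower than HSPE1 and HSPD1.

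The 2 cytosolic Hsp90 forms were nearly level. HSP90AA1 gave 52.5% of their UMIs (50.9 to 54.2%, again for counting error only and too narrow for the spread between cells), and was the higher in 40 cells, against 32 for HSP90AB1. Their split varied 2.92 times as much as counting predicts, above the spike-in pairs, and 76.96% of the gene pairs lay lower. The cell titled 10 had 19 UMIs of HSP90AA1 and 1 of HSP90AB1, and is the shallowest of all, with 7305 UMIs. The cell titled 27 had 11 and 34. The rho of the 2 forms was 0.297, and their r of log2 values 0.147. For HSPA9 against HSPD1 the split varied 1.55 times as much as counting predicts, within the values of the spike-in pairs. The mean of HSPA9, 5.03 UMIs, is below the 10 to 100 UMIs of the spike-ins in those pairs.

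HSPA8 was loosely tied to the others. Its highest rho was 0.282, with HSP90AB1, and with HSP90AA1 it had 0.0850. HSPA1B was near 0 or below with HSPD1 (0.0413), HSPE1 (-0.0732) and both Hsp90 genes (-0.0640 and -0.0552), at a depth of 1.87 UMIs per cell. Against the summed share of all other members, HSPD1 had the highest rho, 0.500, followed by HSP90AB1 with 0.496, HSP90AA1 with 0.464, HSPA9 with 0.403 and HSPH1 with 0.388. HSPA8 had 0.264, DNAJB1 0.247, HSPE1 0.127 and HSPA1B -0.0133. The mitochondrial and the cytosolic sums had a rho of 0.600 with each other.

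Replication genes were taken as 55 genes in 3 lists, which cover origin licensing (such as the MCM helicase), the replication fork and the supply of deoxynucleotides. Together they made up 0.705 ± 0.172% of a cell's UMIs, and most are known to be expressed around S phase. The summed chaperone share had a rho of 0.624 with the replication share (r 0.646, and 0.619 without the 2 extreme cells). The mitochondrial sum had 0.544 and the cytosolic sum 0.587. Of the 9 members, 6 had a rho of at least 0.3 with the replication share, against 3.47% of the 2768 genes outside the replication lists, and the members' median was 0.313, against 0.0463 for those genes. With ribosomal protein genes, mitochondrial genes and the 10 most abundant genes left out of the total, 2 of 9 members reached 0.3, against 1.34% of genes.

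In the histogram of rho with the replication share, HSPD1 was the highest member, at 0.442, with HSP90AA1 at 0.428 and HSP90AB1 at 0.426. DNAJB1 had 0.353, HSPA9 0.313 and HSPE1 0.306. HSPH1, at 0.297, and HSPA8, at 0.290, lay just under the limit. HSPA1B had 0.0667. Thus, on the scale of the cell's total, HSPD1 and HSPE1 had no rho above 0 with each other but each had one with the replication genes. In cells thinned to equal totals, the rho with replication was 0.173 for HSPE1 and 0.535 for HSPD1. On the spike-in scale the rho of HSPD1 and HSPE1 with each other was 0.493.

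**Figure D5:**
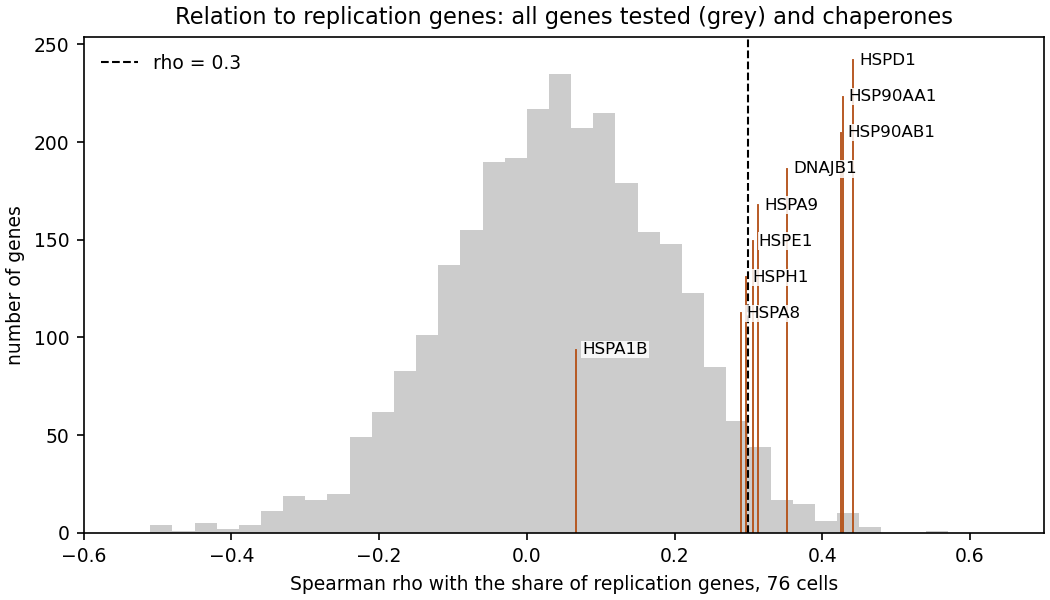
Histogram of the Spearman's rho of each gene compared with the replication share over 76 cells (grey, number of genes on the vertical axis), with the chaperone genes as orange lines whose heights only keep the names apart and a dashed line at 0.3. Of the lines, 8 lie between 0.290 and 0.442, in the upper tail, and HSPA1B lies at 0.0667.

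Ribosomal protein genes, which are known as the most abundant mRNAs of growing cells, had values below 0 with both measures. They held 29.6 ± 3.20% of the UMIs, and their share had a rho of -0.643 with the chaperone share and -0.439 with the replication share. With the ribosomal protein share held fixed (partial Spearman), the chaperone and replication shares had 0.496. HSP90AB1 then had 0.334, HSP90AA1 0.319 and HSPD1 0.318, while HSPE1 had 0.169, HSPA8 0.154 and HSPH1 0.157, so 3 of 9 members stayed at 0.3 or more, against 1.41% of genes. Depth moved with the chaperones as well: the cell total had a rho of 0.404 with their share and 0.162 with the replication share. Given the cell total, 4 of 9 members reached 0.3, against 2.71% of genes.

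By list, the summed chaperone share had 0.464 with origin licensing, 0.561 with the replication fork and 0.505 with deoxynucleotide supply. The list of highest rho differed from member to member, a difference that was not tested. HSPD1 was highest with the fork genes (0.449) and HSP90AB1 and HSP90AA1 with deoxynucleotide supply (0.434 and 0.423). DNAJB1 had 0.428 with the fork genes and 0.156 with licensing. HSPA9 had 0.320 with licensing and 0.162 with the fork.

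Single replication genes were set against the chaperone sum as well. Among 19 of them with a mean of at least 3 UMIs, those closest to the chaperone sum in each list were MCM7 (0.409) and MCM2 (0.383), subunits of the helicase, RFC3 (0.385), a clamp loader subunit, and PCNA (0.339), the sliding clamp, and RRM1 (0.363), the large subunit of ribonucleotide reductase, and TK1 (0.323), thymidine kinase. Not all followed: GMNN, the licensing inhibitor geminin, had -0.00331, GINS2 -0.106 and RPA3 -0.166. Pairs of 1 chaperone and 1 of these genes at 0.3 or more were few. HSPD1, HSP90AA1 and HSPA8 had 2 each and HSPE1, HSPA9 and HSP90AB1 had 1 each, out of 19, against 1.43% of the 20463 pairs of such a gene with any other gene of that abundance. The highest were HSPA9 with CDC6 (0.465), HSPD1 with MCM7 (0.443) and FEN1 (0.422), HSP90AA1 with TK1 (0.406) and HSPE1 with PCNA (0.392).

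The relation did not extend to histone mRNA, which is made in S phase itself and mostly lacks the poly(A) tail that this method primes on. The share of the replication-dependent histones had a rho of -0.356 with the chaperone share, and HIST1H4C, which held most of it, had -0.354. HIST1H4C, at 150.9 UMIs per cell, did not follow the replication share either, with a rho of -0.136. HIST1H2BK, the other of the 2 histone genes compared, had 0.237 with the replication share and 0.112 with the chaperone share. Genes of G2 and M phase had 0.114 with the chaperone sum. HSPA8 had 0.436 with the G2 and M phase share and HSPE1 0.226, while HSPD1 had -0.123 and HSP90AA1 -0.114. HSPA8 also had 0.370 with the immediate early genes. With mitochondrial mRNA, HSPE1 had 0.310, HSPA8 0.205, HSPD1 -0.197 and HSP90AA1 -0.326. These differences between members were not tested.

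Other folding genes were set against the summed chaperone share, beside a background of 8.43% of 2801 genes at 0.3 or more and 2.32% at -0.3 or lower, with a median of 0.0782. Of the CCT subunits, 3 of 8 reached 0.3, with a median of 0.281: CCT8 (0.330), CCT3 (0.319) and CCT4 (0.310). The 28 CCT pairs among themselves had a median rho of 0.180, all above 0, close to the chaperone pairs at 0.171. With the replication share no CCT subunit reached 0.3, and their median was 0.215. Of the ER chaperones, 2 of 11 reached 0.3 with the chaperone sum, namely HSP90B1 (0.345), the ER Hsp90, and HSPA5 (0.332), the ER Hsp70 known as BiP. With replication the ER chaperones had a median of 0.0497.

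Cytosolic co-chaperones, which steer Hsp70 and Hsp90, gave 5 of 27 at 0.3 or more and a median of 0.155. DNAJA1, an Hsp40, was the highest at 0.394, followed by AHSA1, an activator of the Hsp90 ATPase, at 0.331. The most abundant were PTGES3 (p23, an Hsp90 co-chaperone), with 11.9 UMIs per cell and a rho of 0.0178, and HSBP1, which binds heat shock factor, with 9.75 UMIs and -0.0409. Of the other mitochondrial folding genes, 1 of 9 reached 0.3 (YME1L1, an inner membrane protease, 0.349), and GRPEL1, the nucleotide exchange factor of HSPA9, had 0.133. None of these folding lists had a gene at -0.3 or lower, though CALR, an ER chaperone, came close to it at -0.295.

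Further lists were set beside the same background of 8.43% at 0.3 or more. Of the immediate early genes 0 of 6 reached 0.3, and of the mitochondrial mRNAs 0 of 13. Of the unfolded protein and amino acid stress genes 2 of 8 (25%) did, and ATF4, their transcription factor, had 0.185. Of the G2 and M phase genes 2 of 23 did, a share near the background. Of the glycolysis genes 2 of 11 (18.2%) reached 0.3, LDHA (0.470) and PKM (0.325), while GAPDH, the most abundant, had -0.338.

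The genes with the pattern most like each abundant member were sought among 1090 genes with a mean of at least 3 UMIs, by rho over the 76 cells. For HSPD1 they were TPR (0.535), a nuclear pore protein, LDHA (0.497) and ACAT2 (0.485). For HSP90AA1 they were YWHAB (0.552), a 14-3-3 protein, TPR (0.506) and PRRC2C (0.480). For HSP90AB1 they included DEK (0.408), a chromatin protein, and PABPC1 (0.393), a poly(A)-binding protein. In these 3 members no more than 3 genes outside the group lay above the best member, which was HSP90AA1 for HSPD1 and HSPD1 for the other 2.

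HSPE1 and HSPA8 had many genes closer than any member. For HSPE1, 114 genes lay above HSPA9, led by PRDX3 (0.466), a mitochondrial peroxiredoxin, CALM2 (0.451) and UQCRFS1 (0.409), a subunit of respiratory complex III. For HSPA8, 58 genes lay above HSP90AB1, led by MT-TP (0.472), a mitochondrial tRNA, MAT2A (0.471) and RABGGTB (0.456). For HSPA9 there were 4, led by CDC6 (0.465), LARP7 (0.366) and RNF187 (0.357). These genes were picked as the highest of 1090, so their values are descriptions of these cells.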

How the data were processed

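The deposited table held counts of UMIs per gene and cell, whole numbers that the authors had not normalized. The submitters' processing notes list cutadapt 1.2.1, STAR 2.4.0a and the genome build hg19 without saying how each was used. How UMIs were counted, with which annotation and whether by strand, is not given in the sources used here. A row named GENE, which held 0.197% of all values, was left out, 80 spike-in rows were kept apart, and 0 columns were unmatched. Columns were assigned to cells through the run name plus the last number of each name.

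UMIs were divided by the cell's endogenous total. Spearman's rho, Pearson's r of log2(UMIs per 10000 + 1), dispersions and exact 95% binomial intervals were computed in Python 3.11.15 with scipy 1.17.1, and the code was tested on simulated data. A rho of 0.3 is a descriptive limit. Totals of 7305 to 43392 UMIs leave genes of few UMIs ruled by counting error. Genes other than members were named by rule: the 3 of highest rho per abundant member, the 2 of highest rho per replication list, and the most abundant of each other list; genes named because they reached 0.3 or lay lowest in a list were chosen after their values were seen. Of the genes this rule takes, 1 is left unreported. Members and lists were chosen with earlier results of these data known. The alternatives were other scales, thinning, leaving out cells, Pearson's r and partial rho.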

Additional observations from a re-analysis of the deposited data

How the results depend on the processing

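Of the values that answer a comparison, 41 kept their direction and moved by less than the limit set for them (1.5 times for a count, 0.117 for a rho, 1 SD for a level, the counting interval for a split), 13 moved further and 1 reversed. Of the values of single genes or pairs, 92 stayed within it, 22 moved further and 1 reversed. On the spike-in scale, the median rho of the chaperone pairs was 0.384 with 23 pairs at 0.3 or more, and the median rho with replication was 0.708. On that scale 18.3% of all gene pairs reached 0.3, and 63.4% of genes did so with replication. The rho of HSPD1 and HSPE1 reversed there, to 0.493. Against 5 of 36 in the report, pairs at 0.3 or more numbered 3 without the abundant genes in the total (1.09% of all gene pairs), 3 given the cell total (0.908%), 3 without the 2 cells of most extreme chaperone share (1.21%), 3 of 15 among genes with a mean of at least 3 UMIs (1.75%), and 2 given the ribosomal protein share (0.947%), where their median rho was 0.0901. Against 6 of 9 in the report, members at 0.3 or more with replication numbered 2 without the abundant genes in the total (1.34% of all genes), 3 of 6 in thinned cells (3.47%), 3 given the ribosomal protein share (1.41%), 4 given the cell total (2.71%) and 0 with histones alone, where the median reversed to -0.174. In thinned cells HSPA9 had a rho of 0.000163 with replication, and 3 members exceeded the highest spike-in. Beyond the fewer genes and UMIs of some alternatives, the cause was not tested. No paired analysis between groups was possible because the cells form 1 group.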
